A study of Homo sapiens with 52 samples.

Results

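The 10 classical cadherin genes CDH18, CDH12, CDH10, CDH9, CDH6, CDH8, CDH11, CDH1, CDH2 and CDH7 were followed for their contact with the nuclear lamina in single human cells. Each gene was represented by the 100 kb bins that overlap a fixed hg19 interval, 42 of 26584 measured bins in all, with 1 Mb on each side as flank (192 bins, since the flanks of CDH18 and CDH12 and those of CDH12 and CDH10 overlap). The 51 cells analysed were diploid (2N) cells of clone 14 of KBM7, a line established from human chronic myeloid leukaemia. They expressed the methyltransferase Dam fused to Lamin B1, a protein of the lamina. The fusion was induced with 0.5 nM Shield1 for 15 h, and single cells were sorted from the smallest 2% among those carrying both Fucci cell cycle markers. Dam methylates adenine in GATC where DNA lies near the lamina, and DpnI then cuts the methylated sites. The cells form 1 group from 1 clone with no untreated or Dam-only control among the samples used, and no separate cultures are named. They count as 1 sample, so SDs describe the spread between these cells and no p-values over cells are given. The 2 copies of a diploid gene are summed in each value, so contact of 1 copy and of both cannot be told apart.

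The deposited value of a bin is its observed over its expected signal (OE), and a bin was taken as in contact at an OE of at least 1. Recovered reads ranged from 50978 to 316463 per cell with a median of 142540. A bin of median expected number at an OE of 1 held 2.12 to 13.2 reads, so single calls in shallow cells rest on few reads.

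Classical cadherins are transmembrane proteins that join neighbouring cells by calcium-dependent binding of their outer repeats, while their inner tails bind catenins and through them actin. Type I members include E-cadherin (CDH1) and N-cadherin (CDH2), and the other 8 genes here encode type II members, several of them known best from neurons. DNA that lies at the lamina is in general gene-poor and little transcribed. Transcription was not measured in these cells.

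Of the 10 genes, 9 lay in chromatin that touched the lamina in most cells, and CDH1 touched it in none. The mean share of a gene's bins in contact ran from 96.1% ± 13.6 (SD, n = 51) for CDH7 down to 68.0% ± 35.3 for CDH10, and was 0% for CDH1. A contact frequency of at least 80% of cells was reached by 31 of the 42 gene bins (73.8%) and by 20.9% of all measured bins. Among the flank bins it was reached by 130 of 192 (67.7%). Frequent contact was thus not limited to the genes themselves. Of the gene bins, only the 2 of CDH1 (4.76%) were contacted in no cell, against 38.7% of all measured bins. Of all measured bins, 1985 were without a single read. By chromosome, the frequency of at least 80% was reached by 21 of 27 gene bins on chromosome 5 (26.2% of that chromosome's bins), 5 of 10 on chromosome 16 (8.92%) and 5 of 5 on chromosome 18 (36.1%). In the flanks that frequency was reached by 69.6% of bins on chromosome 5, 50.0% on chromosome 16 and 90.0% on chromosome 18. The bins of CDH1 were 2 of 10 on chromosome 16, where 55.4% of bins were contacted in no cell. The other 2 chromosomes had no such gene bin, beside 29.4% of bins on chromosome 5 and 20.4% on chromosome 18. Neighbouring bins are not independent, so these counts weigh long genes most.

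**Figure D1:**
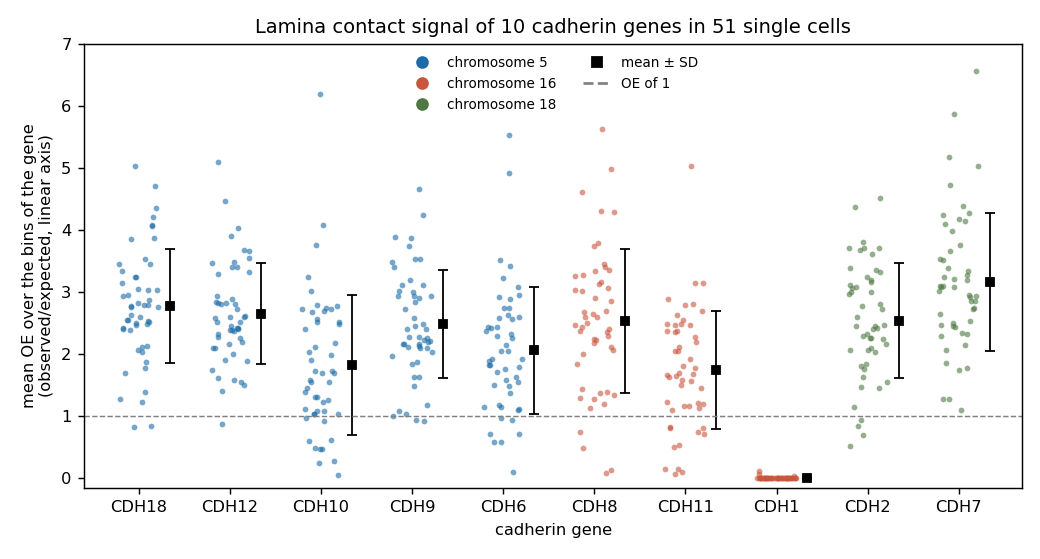
Mean OE over the bins of each gene (linear vertical axis), with 1 point for each of the 51 cells and the mean ± SD beside them as a black square with bars. The points of CDH1 lie between 0 and 0.118 and the points of the other 9 genes spread from near 0 to 6.56, with a dashed line at an OE of 1.

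The bases that Dam can mark were looked up in the promoters, because GATC is the site the assay reads. RefSeq sequences of the 250 bases before the start (GRCh38.p14) matched 7 of the 10 genes, with 14 listed starts, and CDH6, CDH11 and CDH1 were not matched. GATC, which reads the same on both strands, was present at 5 of the 14 starts, in the genes CDH8, CDH2 and CDH7, and 35.8% of all 35116 promoters of that length hold it. Shown are the outermost starts of 4 genes that touched the lamina, a pair without the site and a pair with it, written 5′ to 3′ with GATC in capitals.
CDH10: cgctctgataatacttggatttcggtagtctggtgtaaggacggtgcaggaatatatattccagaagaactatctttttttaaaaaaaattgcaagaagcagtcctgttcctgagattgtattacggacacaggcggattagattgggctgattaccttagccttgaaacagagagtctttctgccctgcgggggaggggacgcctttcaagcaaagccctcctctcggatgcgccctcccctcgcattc
CDH9: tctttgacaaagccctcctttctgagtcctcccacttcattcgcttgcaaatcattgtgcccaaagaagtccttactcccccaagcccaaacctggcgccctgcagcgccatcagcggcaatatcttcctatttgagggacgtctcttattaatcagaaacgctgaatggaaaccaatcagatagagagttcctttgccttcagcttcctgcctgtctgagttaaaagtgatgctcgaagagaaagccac
CDH8: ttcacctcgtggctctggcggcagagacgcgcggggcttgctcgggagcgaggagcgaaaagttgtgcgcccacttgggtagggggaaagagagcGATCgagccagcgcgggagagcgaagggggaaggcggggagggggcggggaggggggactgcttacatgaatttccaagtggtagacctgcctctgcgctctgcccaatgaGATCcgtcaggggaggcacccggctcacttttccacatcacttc
CDH2: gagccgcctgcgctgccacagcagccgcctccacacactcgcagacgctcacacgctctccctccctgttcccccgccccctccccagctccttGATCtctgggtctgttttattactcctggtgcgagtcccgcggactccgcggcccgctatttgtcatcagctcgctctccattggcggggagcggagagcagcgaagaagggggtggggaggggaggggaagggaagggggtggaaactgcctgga
All 4 lie on the minus strand of GRCh38.p14, at chr5:24644979-24645228 (CDH10), chr5:27038587-27038836 (CDH9), chr16:62036439-62036688 (CDH8) and chr18:28177131-28177380 (CDH2). These positions were not converted to hg19, the build of the bins. The CDH10 and CDH9 promoters are low in G and C (47.6% and 48.4%), with 10 and 7 CG pairs. The CDH8 and CDH2 promoters are at 64.0% and 66.0%, with 19 and 17 CG pairs, and the median over all promoters is 58.0%. Of the 14 listed starts 9 lay below that median, among them a second start of CDH2 (42.0%). Promoters of genes that touched the lamina thus lay on both sides of it. The match only describes the sequence, since a 100 kb bin is far longer than a promoter and does not resolve it.

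The 5 type II genes of chromosome 5 lie in order along its short arm, from CDH18 to CDH6. CDH18, a type II cadherin known from the central nervous system, covered 6 bins from 19400001 to 20000000. Its mean OE ranged from 0.835 (cell 31) through a median of 2.76 to 5.03 (cell 51), and 49 of 51 cells lay at or above 1. In 37 cells every bin of CDH18 was in contact, and the mean share was 92.2% ± 15.0. To the left of the interval 89.0% of bins were in contact and to the right 49.2%, where single bins were contacted in 11 to 47 cells. The outermost CDH18 start that RefSeq lists, at chr5:20575714-20575963 of GRCh38.p14, lies beyond the interval. By that start part of the right flank belongs to the gene. The interval exceeded this right flank by 42.9 points ± 27.9 and was higher there in 46 cells.

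CDH12, once named brain cadherin, is the longest of the intervals with 12 bins from 21700001 to 22900000. Its mean OE had a lowest value of 0.883 (cell 31), a median of 2.52 and a highest value of 5.10 (cell 48). Its mean share was 91.2% ± 12.8, and 50 cells had at least 50% of its bins in contact. It mirrored CDH18, with less contact on its left (60.4%) than on its right (92.2%). The 17 bins between the intervals of CDH18 and CDH12 were contacted in 58.9% ± 23.8. Among them the bin from 20500001 to 20600000, with an expected number of 324, was contacted in 13 cells. The bin with the fewest, 11 cells from 20700001 to 20800000, has an expected number of only 20 and held 14 reads over all cells. A single read could make a contact there, and its neighbour to the right has an expected number of 34. Both intervals therefore lie on the shoulders of a stretch of lower contact. By the outermost CDH18 start listed above, part of this stretch belongs to CDH18 itself. In the RefSeq gene order of GRCh38 no other protein-coding gene lies between CDH18 and CDH12.

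**Figure D2:**
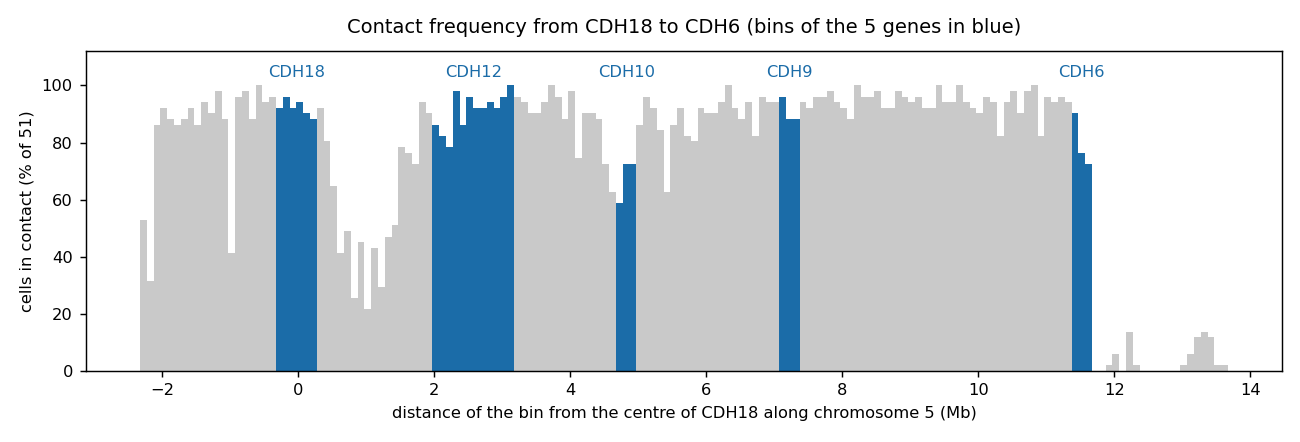
Percent of the 51 cells in contact in each 100 kb bin (vertical axis) against distance from the centre of CDH18 in Mb along chromosome 5, with bins of the 5 cadherin genes in blue and all others in grey. Contact drops between the intervals of CDH18 and CDH12, where the lowest bin (11 of 51 cells) has an expected number of 20. Contact dips around CDH10 and again in a bin to its right (at 5.42 Mb, 32 cells). It stays high from CDH9 to CDH6 and ends at the right side of CDH6.

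CDH10, another type II cadherin of the brain, had the lowest mean contact share of the 9 contacted genes at an OE of at least 1. By mean OE CDH11 was lower than CDH10, whose mean was 1.83 ± 1.12. Its mean OE was 0.0518 in the lowest cell (cell 43), 1.69 at the median and 6.20 in the highest (cell 25). The cells therefore covered the whole range, with all 3 bins in contact in 22 cells and none in 7. The mean share of 68.0% lay below both flanks, with a difference of -18.1 points ± 28.7 on the left and -17.5 points ± 34.5 on the right. Taking both flanks together, CDH10 was lower in 29 cells, higher in 11 and equal in 11, so the mean difference of -17.8 points was smaller than its SD of 30.1. The 3 bins were contacted in 30, 37 and 37 cells, beside 32 cells in the last bin of the left flank and 44 in the first of the right. A bin farther to the right, from 25100001 to 25200000, was also contacted in only 32 cells.

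CDH9, known as T1-cadherin and from synapses of the retina, lay 2.39 Mb farther on between the centres of the 2 intervals. Its mean OE ranged from 0.919 (cell 27) through 2.29 to 4.66 (cell 44), and 42 cells had all 3 bins in contact. Its mean share of 90.8% ± 21.2 differed from the flanks (93.6%) by -2.78 points ± 19.8, less than the spread between cells. The 40 bins between CDH9 and CDH6 were each contacted in 42 to 51 cells, with a mean of 94.4% ± 5.65. In 8 cells contact was unbroken from CDH9 through CDH6.

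CDH6, or K-cadherin, is known from the developing kidney and neural crest, and its bins were the last of this contacted stretch. Contact fell across its 3 bins from 46 to 39 to 37 cells, and the next 2 bins on the right were contacted in no cell. Mean OE in the gene was lowest at 0.102 (cell 41), 1.92 at the median and highest at 5.54 (cell 43), with 44 cells at or above 1. The gene (79.7% ± 29.9) exceeded its right flank (2.35% ± 6.19) by 77.4 points ± 29.8 and was higher in 50 cells and equal in 1. It differed from its left flank (94.3%) by -14.6 points, less than the SD of 27.2. In 30 cells the last contacted bin of the gene and right flank was the last bin of CDH6, in 12 it was an earlier bin of the gene, and in 8 a bin of the flank. The 7 cells in contact in 1 flank bin, from 31900001 to 32000000, had no contact in the bin next to the gene. DROSHA, which encodes an RNase of microRNA processing, is the next protein-coding gene on this side in GRCh38.

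**Figure D3:**
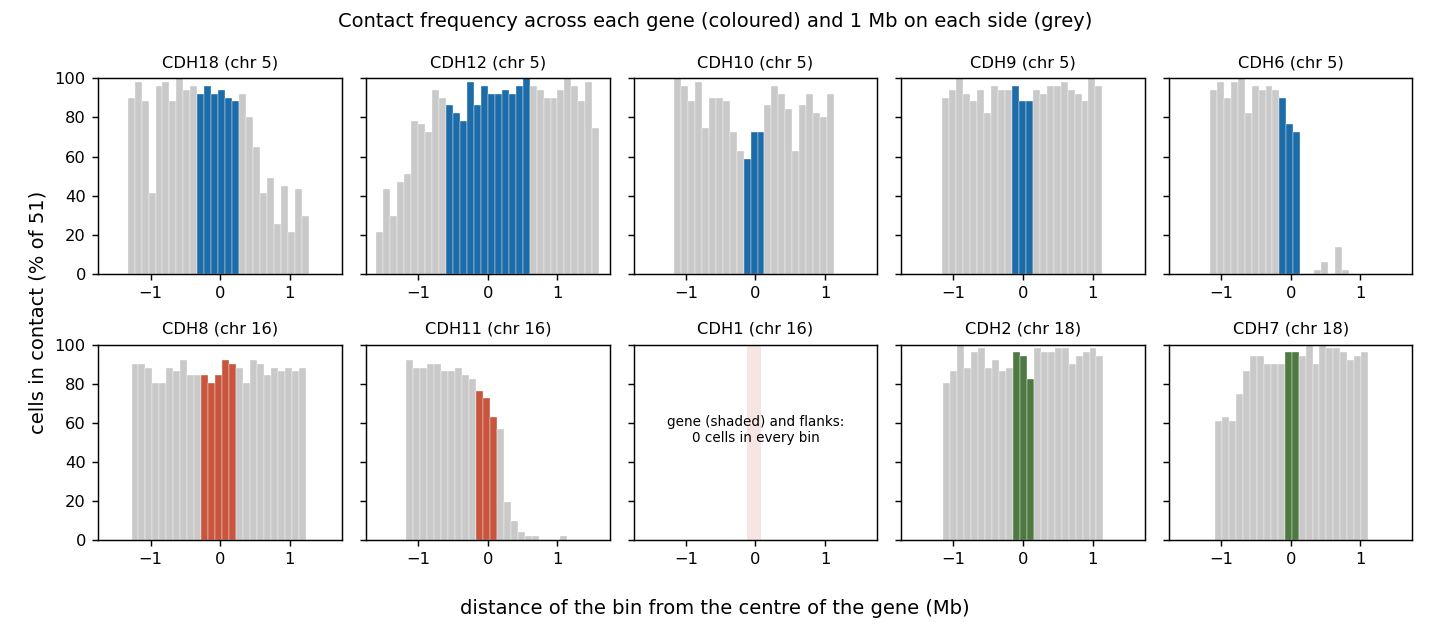
Percent of the 51 cells in contact (vertical axis) in each 100 kb bin of a gene (coloured by chromosome) and of its 1 Mb flanks (grey), against distance from the centre of the gene in Mb. CDH6 and CDH11 sit where contact ends on their right side, CDH10 lies in a dip, CDH9, CDH8 and CDH2 lie within contacted stretches, and CDH1 (its place shaded pale, with no bar) and its flanks are at 0 in every bin.

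On chromosome 16 contact is rarer as a whole, and the 3 cadherin genes there ran from frequent contact to none. CDH8, a type II cadherin of brain circuits, was contacted in 86.3% ± 28.1 of its 5 bins, from 61600001 to 62100000. The rest of the chromosome was at 15.4% ± 6.60, so the gene was 70.9 points ± 25.3 higher, with this direction in 48 of 51 cells. This was the largest excess over its own chromosome among the 10 genes. Mean OE of CDH8 was 0.0954 in the lowest cell (cell 31), 2.51 at the median and 5.63 in the highest (cell 52). All 5 bins were in contact in 37 cells and none in 3. Its flanks (86.9%) differed from it by less than 1 point in the mean (-0.588 ± 16.8).

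CDH11, or OB-cadherin, is known from osteoblasts and mesenchymal cells. It is the next protein-coding gene after CDH8 in the RefSeq order, and the 28 bins between them were contacted in 87.3% ± 24.2. CDH11 had a mean share of 70.6% ± 35.7, with all 3 bins in contact in 25 cells and none in 7. Its mean OE was lowest at 0.0648 (cell 30), 1.68 at the median and highest at 5.04 (cell 18). The end of contact was more gradual here than at CDH6, with 39, 37 and 32 cells in the bins of the gene and 29, 10, 5 and 2 in the next bins of the right flank. The gene was 61.0 points ± 32.6 above that flank (9.61%) and differed from the left one (87.6%) by -17.1 points ± 26.2. The right flank held a contacted bin in 30 cells, and in 19 contact was unbroken from the bin before the gene through the gene into it. The last contacted bin lay in the gene in 15 cells, and 6 had none in gene or right flank. The next protein-coding gene on that side is CDH5, the cadherin of blood vessel endothelium.

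CDH1 encodes E-cadherin, the adhesion molecule of epithelial junctions. None of its 2 bins from 68700001 to 68900000 and none of the 20 flank bins was called in contact in any of 51 cells. Of these 22 bins, 4 held no read in any cell, 1 of them in the gene, so their expected number could not be recovered. Their deposited values are 0, and absent contact cannot be told there from a bin that yields no reads. A count of 0 of 51 cells leaves room for a share of up to 5.88% (3 counts of 51), and the upper end of the exact binomial 95% interval is 6.98%, both for counting error only. The signal itself was near 0, with 5 reads over all cells in the gene, from 3 cells, and 54 reads in the whole window, from 17 cells. The highest OE of any bin in the window was 0.461, in cell 23. The gene bin without a read runs from 68800001 to 68900000, so the limit rests on the other, with an expected number of 344. The nearest bins ever contacted lay 2.50 Mb to the left, in 1 cell, and 2.1 Mb to the right, in 5 cells. Between CDH11 and CDH1, 28 of 35 bins were contacted in no cell. With CDH1 at 0% throughout, the rest of its chromosome (18.2% ± 7.10) was higher in the 50 cells that had any contact there. It was equal in cell 31, which had no contact on chromosome 16 at all. The same holds for every bin contacted in no cell, 55.4% of the bins of chromosome 16.

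On chromosome 18 both members were contacted in nearly every cell. CDH2, the N-cadherin of neural tissue and heart, is like CDH1 a type I gene but stood at the other end of the range. Its 3 bins from 25500001 to 25800000 were contacted in 90.8% ± 22.2, and 42 cells had all 3 in contact. Mean OE of CDH2 ranged from 0.518 (cell 16) through 2.46 to 4.52 (cell 44), a range that does not overlap that of CDH1, whose highest cell was at 0.118. In that mean the CDH1 bin without a read counts as 0, and the other bin reached at most 0.236. On chromosome 16, 55.4% of bins were contacted in no cell. How many of those also stay below the range of CDH2 was not counted. CDH2 was higher than CDH1 in 50 cells and equal in 1. The flanks of CDH2 (93.1%) and the gene differed by less than the spread (-2.29 points ± 17.8). With flanks of 2 Mb the direction turned (15.0 points ± 17.4).

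CDH7, a type II cadherin known from neural crest, had the highest contact of the 10 genes. Its 2 bins from 63400001 to 63600000 were each contacted in 49 cells, and at least 50% of them were in contact in all 51 cells (exact binomial 95% interval 93.0% to 100%). This interval takes the cells as independent draws and covers counting error only. With 2 bins, 1 contacted bin meets that call, and both bins were in contact in 47 cells. Mean OE was 1.10 in the lowest cell (cell 18), 3.09 at the median and 6.56 in the highest (cell 42). The rest of chromosome 18 stood at 45.6% ± 6.87, and CDH7 was higher in all 51 cells, by 50.5 points ± 13.9. Contact to its left (80.4%) was 15.7 points lower, less than the SD between cells, with the gene higher in 27 cells, lower in 3 and equal in 21.

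Set in order of mean contact share, the genes were CDH7, CDH18, CDH12, CDH9 with CDH2 at the same value, CDH8, CDH6, CDH11, CDH10 and CDH1. No neighbouring pair from CDH7 to CDH10 differed beyond its spread, the widest gap being 9.15 points ± 47.6 between CDH6 and CDH11. CDH10 exceeded CDH1 by 68.0 points ± 35.3 and was higher in 44 cells, with the other 7 equal. Every gene but CDH1 lay above the rest of its chromosome in at least 40 cells. For CDH10 that excess of 31.7 points was below its SD of 34.0, and for the other 8 it was above it. At an OE of at least 2 the excess fell below its SD for CDH6 (23.0 ± 32.9) and for CDH11, whose SD was then 33.8, and with only bins wholly inside the gene for CDH6 (39.8 ± 41.4). For CDH10 it was above its SD at an OE of at least 0.5 (41.6 points) and in even-numbered cells (34.0 ± 32.9).

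Over the 51 cells, Pearson's r between a cell's reads and its contact share ran from 0.0104 (CDH10) to 0.273 (CDH2), a description with cells of 1 sample as points. With all cells thinned to 50978 reads, the shares of the 9 genes were 66.7% for CDH10 to 92.2% for CDH7, and CDH1 stayed at 0%.

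Single cells held most of the members at the lamina at once. All 9 contacted genes had at least 50% of their bins in contact in 18 cells, 8 genes did in 19 cells and 7 in 12. The 2 other cells had 5 genes (cell 6) and 2 (cell 31). Taken alone, each of the 9 genes had at least 50% of its bins in contact in 38 (CDH10) to 51 cells (CDH7). The call is easier to meet for CDH7, where 1 contacted bin of 2 is enough. Whether joint contact went beyond these single shares was not tested. Of the 5 genes on chromosome 5, all were in contact in 27 cells, 4 in 19, 3 in 4 and none in 1. That last cell was again cell 31, where each of the 5 genes was at 33.3% or 41.7% of its bins, although chromosome 5 as a whole was at 33.4%, near the mean of 36.9% ± 5.73. In cell 31 CDH8 and CDH11 were at 0%, while CDH2 and CDH7 were at 100%. Cell 42 showed a different pattern. Chromosome 5 was at its lowest there, with 10.2% of bins in contact, but CDH9 kept 100% and CDH18 and CDH12 kept 66.7% each, with CDH10 and CDH6 at 33.3%.

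**Figure D4:**
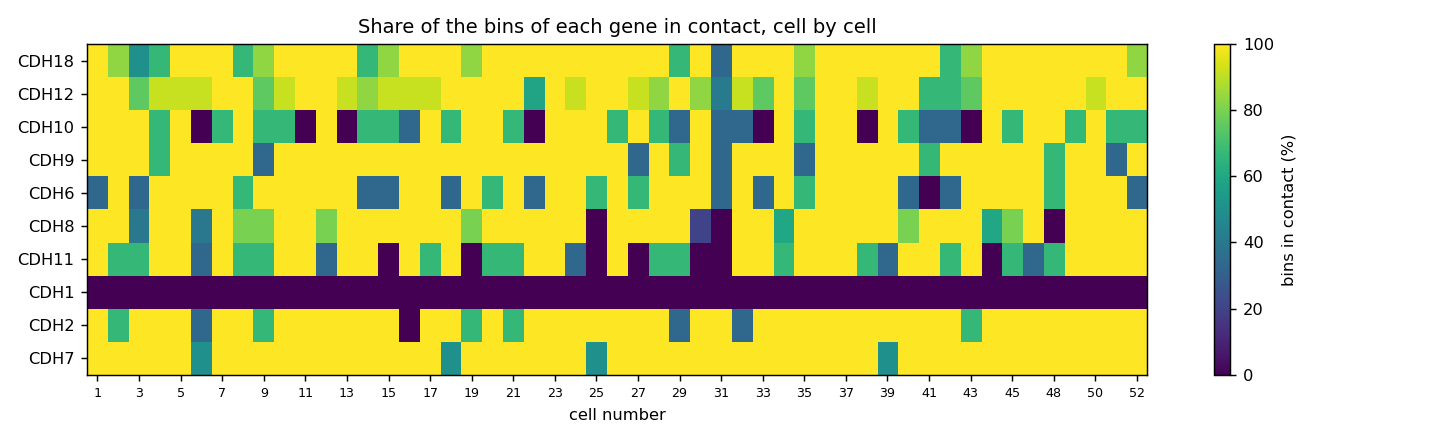
Percent of the bins of each gene in contact (colour, from 0 in dark to 100 in yellow) for each of the 51 cells, in order of cell number, with cell 47 not analysed. CDH1 is at 0 in every cell, cell 31 has 7 of the other genes below 50%, and losses of single genes such as CDH10 are spread over many cells.

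Chromosome 16 was nearly free of contact in 3 cells, with 0.764% (cell 25), 1.78% (cell 30) and 0% (cell 31) against a mean of 17.7% ± 6.90. CDH11 was at 0% in all 3 and CDH8 at 0%, 20.0% and 0%. CDH8 was also below 50% in 3 other cells. In cell 48 CDH8 was at 0% while CDH11 was at 66.7%.

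Whether the genes were contacted in the same cells was described by correlating their shares over cells, after subtracting the genome's share of each cell. Over the 12 pairs on 1 chromosome, Pearson's r had a mean of 0.249 and a range of 0.0061 to 0.542. Over the 24 pairs on different chromosomes the mean was -0.0180, with a range of -0.385 to 0.292. The mean of the same-chromosome pairs rested in part on cell 31, without which it was 0.155, with 9 of 12 pairs above 0. Of the different-chromosome pairs 4 of 24 were then above 0. Leaving out any other cell gave a same-chromosome mean of 0.236 to 0.264. Over all 51 cells the most alike members were CDH8 and CDH11, 3.19 Mb apart by their centres (r = 0.542, Spearman's rho = 0.616, 51 cells). Their r was 0.485 without cell 31. Without the 3 cells nearly free of contact on chromosome 16 it was 0.310, below CDH12 with CDH10 (0.427) and with CDH6 (0.388). CDH12 was the member most like CDH18 (r = 0.465), CDH6 (0.414), CDH10 (0.415) and CDH9 (0.337). Spearman's rho was lower for CDH18 (0.283), CDH6 (0.258) and CDH9 (0.205) and 0.454 for CDH10. By rho the member most like CDH9 was CDH8, on another chromosome (0.438). Without cell 31 Pearson's r with CDH12 was 0.206 for CDH18, 0.356 for CDH6, 0.413 for CDH10 and 0.153 for CDH9. CDH10 and CDH9, neighbours on the arm, had an r of 0.0061. On chromosome 18, CDH2 and CDH7 lie 37.8 Mb apart and had an r of 0.0230 and a rho of 0.280. By Pearson's r the members most like them were on other chromosomes, CDH10 for CDH2 (r = 0.292, rho = 0.269) and CDH8 for CDH7 (r = 0.264, rho = 0.477). By rho CDH7 was the member most like CDH2.

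**Figure D5:**
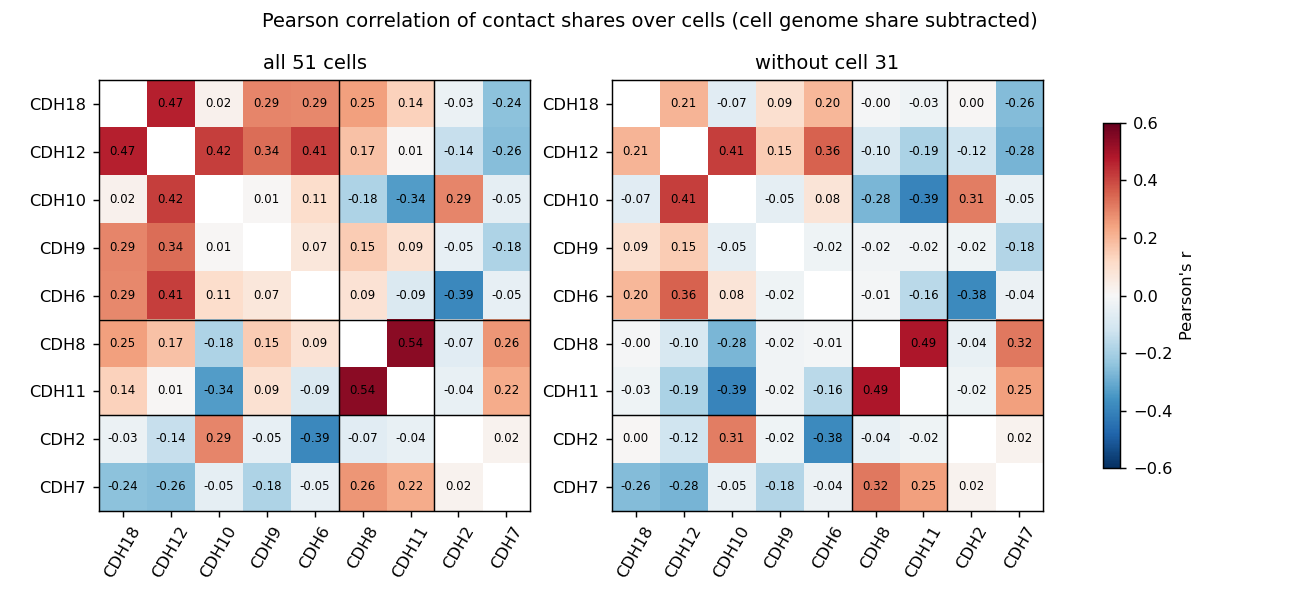
Pearson's r of contact shares over cells for each pair of the 9 contacted genes, in all 51 cells (left) and without cell 31 (right), from blue (negative) to red (positive). Black lines part chromosomes 5, 16 and 18, and the pair CDH8 and CDH11 is the highest in both panels (0.542 and 0.485).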

How the data were processed

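Per the labels, single KBM7 cells of clone 14 were profiled by DamID with a Dam and Lamin B1 fusion. The protocol lists 21 extension steps of PCR. The submitters' processing notes name Bowtie2 2.1.0, cutadapt and hg19. The authors deposited 1 ratio of observed to expected signal per cell and 100 kb bin. How the expected value was made is not given in the sources used here. Of 52 labelled cells, cell 47 was not analysed here. Of 30376 bins, 3792 without values were left out.

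Reads were recovered from the ratios as whole numbers (100% of values above 0, within 0.02 reads). Tested on simulated data over 26584 bins, 99.97% of values were recovered. The reads may be distinct sites.

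Members are the bins overlapping each interval. All 10 genes are named. For likeness, each gene is set beside the member of highest Pearson correlation. Members and lists were chosen with earlier results of these data known. Differences were taken within cells, with Python 3.11.15, numpy 2.4.6 and scipy 1.17.1. Other cadherin and catenin genes listed beforehand were not placed on the bins and are not analysed here.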

Additional observations from a re-analysis of the deposited data

How the results depend on the processing

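Of 385 values under 16 alternatives, 375 stayed within the SD of the reported value (or, for the share of cells, its interval). That SD is over cells, but for the mean correlations it is over pairs of genes. None of the differences above their SD reversed. Some of the 375 could not move. Keeping only bins with a read in any cell left every contact share as it was, and the share of CDH1 has an SD of 0. At an OE of at least 2, the contact shares of CDH18, CDH12, CDH9, CDH6 and CDH2 moved to 71.6%, 68.0%, 60.8%, 46.4% and 64.7%, the difference of CDH1 from its chromosome to -10.2 points, the chromosome 5 genes in contact per cell to 3.24 (from 4.37), and cells with all 5 in contact to 15.7% (from 52.9%). That last share was 76.5% at an OE of at least 0.5 and 84.3% where any bin counted as contact. These shifts follow from the looser or stricter call. At an OE of at least 2 the shares of CDH8, CDH11, CDH10 and CDH7 fell as well, but by less than their SDs. They therefore count as within the spread. The shares of CDH10 and CDH11 nevertheless dropped below 50%, and fell by more than those of CDH18, CDH12 and CDH2. CDH1 was at 0% in every alternative that gave a value. Differences from both flanks ran from 11.8 (flank of 0.5 Mb) to 27.1 points for CDH18, from 11.4 to 35.3 for CDH6 and from 6.11 to 31.0 for CDH11 (both lowest at an OE of at least 2), and from -21.4 (flank of 2 Mb) to -7.45 (OE of at least 0.5) for CDH10. For CDH12 they ran from 3.53 (flank of 0.5 Mb) to 18.0. The flank difference of CDH6 was above its SD as reported (31.4 ± 28.0) but not at an OE of at least 2 (11.4 ± 28.2). The same held for CDH12 (14.9 ± 12.9 as reported, 15.0 ± 17.3 at an OE of at least 2). In odd-numbered cells CDH12 was also below its SD (14.1 ± 15.0). Differences below their SD changed sign for CDH2 (-7.25 to 15.0, the latter with flanks of 2 Mb), CDH9 (-7.20 to 1.47) and CDH8 (-1.73 to 2.75). The mean correlation of same-chromosome pairs ranged from 0.0644 (OE of at least 0.5) to 0.296 (nothing subtracted). Omitting cell 31, omitting cells 25, 30 and 31, and requiring an expected number of at least 100 were chosen after seeing the data. With only bins wholly inside the gene, CDH1 and CDH7 gave no value. No paired analysis was possible because the cells form 1 group, with no samples of another group to pair them with. The differences given are between regions of the same cell.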

Other observations

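For genes whose strand RefSeq's promoter table gives, the bin at the start side and the bin at the far end were set side by side within each cell. In CDH2 the start-side bin had a mean OE of 1.90 ± 0.994 (SD, n = 51) and the far bin 3.01 ± 1.22, and the start side was lower in 44 of 51 cells. CDH10 had the opposite order, 2.1 at the start and 1.52 at the far end, higher in 39 cells. Both differences were smaller than their SD over cells (1.16 for CDH2 and 1.28 for CDH10). They were the widest among the genes kept. In CDH12, CDH9, CDH8 and CDH7 the start side was higher in 28, 19, 31 and 22 cells and lower in 23, 32, 20 and 29. Those differences were also smaller than their SD, with no common direction. CDH18 is left out because its outermost listed start lies outside the interval used. The strand is that of GRCh38.p14, and the comparison was chosen after the profiles were seen.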
